A study of Rattus norvegicus with 2 samples.

Results

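Stellate ganglia, the sympathetic ganglia whose neurons project to the heart, were dissociated and their cells sequenced one by one with 10x Genomics droplet chemistry. The 2 libraries came from Wistar rats, which are normotensive, and from spontaneously hypertensive rats (SHRs) in the prehypertensive phase, 1 library per strain, and animals of both strains were 5 to 6 weeks old. All were males by the study's methods, and the number of animals pooled for a library is not given in the sources used here. Wistar rats are an outbred stock and SHRs an inbred strain, so the strains differ in much besides the tendency to hypertension. Every gene has a single value in each library, an average over the cells that were selected as sympathetic neurons. The paper describes 2 populations of sympathetic neurons, told apart mainly by expression of neuropeptide Y. Their shares in each average are not given in the sources used here.

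The values described here are those of 10 genes encoding cyclic nucleotide phosphodiesterases, of 25399 genes listed. They were taken by symbol: Pde1a, Pde1b, Pde1c, Pde2a, Pde3a, Pde3b, Pde4b, Pde4d, Pde9a and Pde10a, and all 10 have a line in both libraries. Levels are means per 10000 counts of a neuron. The chemistry counts the 3′ end of each transcript, so levels of different genes are given without division by gene length. Since each strain has a single library, no difference below carries an error or a test. Differences between neighbours in an order of levels cannot be set against a spread either.

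Phosphodiesterases end cyclic nucleotide signals by hydrolysing cAMP and cGMP, which are made by adenylyl and guanylyl cyclases and act through protein kinases, Epac proteins and ion channels. The subfamilies differ in substrate and in regulation. PDE4, PDE7 and PDE8 enzymes are specific for cAMP and PDE5, PDE6 and PDE9 enzymes for cGMP, while PDE1, PDE2, PDE3, PDE10 and PDE11 enzymes accept both. In sympathetic neurons both messengers are studied for their effects on calcium entry and noradrenaline release.

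In the SHR sympathetic neurons the summed level of the 10 genes was 1.12 per 10000, against 2.24 in Wistar, which is 2.00-fold lower. The transcripts behind most of this sum, Pde9a, Pde2a, Pde4b, Pde3a and Pde10a, each had a lower mean in SHR. Pde2a differed most, by 3.74-fold, and Pde3a least, by 1.45-fold. These 5 genes are those whose average over both libraries reached a minimum of 0.1 per 10000. The other 5 were under it, among them Pde1c, which was the only one of the 10 genes with a higher mean in SHR.

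Of the 5 genes past the minimum, 4 were lower in SHR by at least 1.5-fold, a fixed size used in place of a test, and none was higher. Over all 7621 genes past the minimum, 26.5% were lower by that size, 5.22% were higher by it and 65.6% were lower by any amount. The median log2 ratio of the 5 genes, SHR over Wistar, was -0.82, beside -0.21 over all genes past the minimum. Without the minimum, 8 of the 9 genes above 0 in both libraries had a lower mean in SHR, beside 66.0% of all genes above 0 in both.

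**Figure D1:**
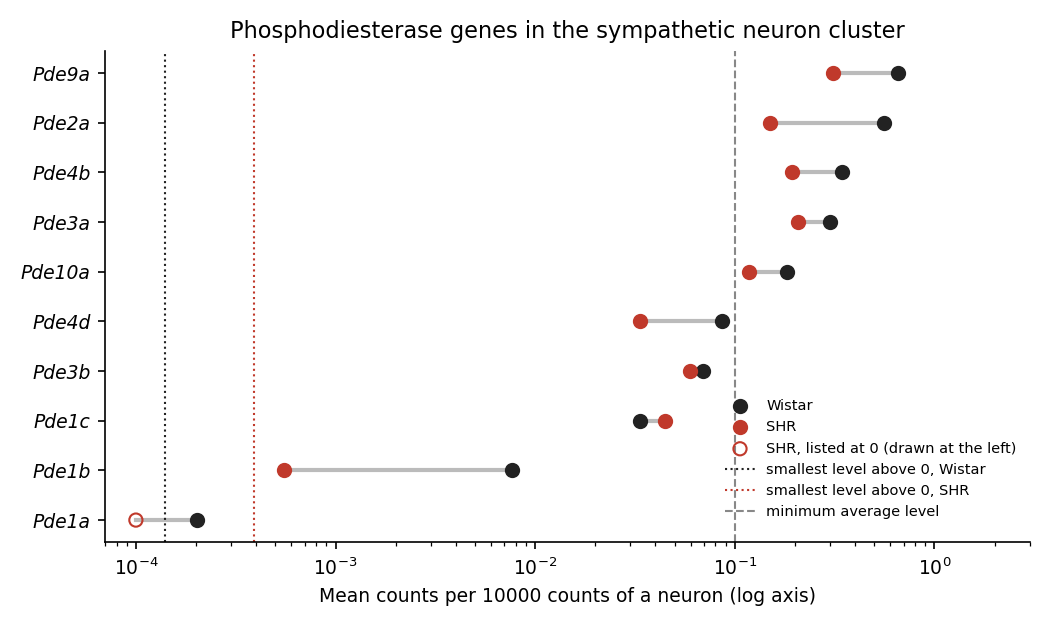
Mean counts per 10000 (log axis) of each of the 10 phosphodiesterase genes in the Wistar (black) and SHR (red) neuron clusters, joined by a grey line. The dotted lines mark the smallest level above 0 in each library and the dashed line the minimum of 0.1. The open circle is Pde1a, listed at 0 in SHR. Of the 10 genes, Pde1c is the one whose SHR point lies to the right, at 0.0445 against 0.0334.

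Pde9a, which encodes a cGMP-specific enzyme of high affinity, had the highest level of the 10 genes in both strains. Wistar neurons had a mean of 0.657 per 10000 and SHR neurons one of 0.310, which is 2.12-fold lower, a log2 ratio of -1.09. In rank among all genes it stood at 2677 in Wistar and 4173 in SHR, where 16004 and 14647 genes were above 0. The Pde9a level was below that of Th, encoding the rate-limiting enzyme of noradrenaline synthesis, which reached 10.2 and 10.1 per 10000. Among the genes past the minimum, 8.96% had a log2 ratio as low as that of Pde9a or lower.

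Pde2a encodes an enzyme of dual substrate whose hydrolysis of cAMP is stimulated by cGMP. It was the second most abundant of the 10 in Wistar, at 0.558 per 10000, but ranked 4 of the 10 in SHR, at 0.149. SHR was lower by 73.2%, a log2 ratio of -1.90. Only 1.26% of the genes past the minimum had a ratio as low or lower, and the share was 1.18% among genes of similar average level. Such shares vary with level, and 27.6% to 39.6% of the genes in the level groups of the 5 phosphodiesterase genes were lower by 1.5-fold. Within their own level groups, ratios as low were found in 8.66% of genes for Pde9a, 21.3% for Pde4b, 36.4% for Pde10a and 36.6% for Pde3a. Pde2a made up 24.9% of the summed level of the 10 genes in Wistar and 13.4% in SHR.

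The PDE3 enzymes hydrolyse cAMP and are inhibited by cGMP, so that cGMP acts on them in the opposite sense to its action on PDE2. For Pde3a the Wistar mean was 0.300 per 10000 and the SHR mean 0.207, a log2 ratio of -0.54. This ratio was the smallest of the 5 genes past the minimum, and 29.1% of all genes past it had one as low or lower. Pde3a ranked 4 of the 10 genes in Wistar and 2 in SHR. Pde3b, the other PDE3 gene, was less abundant, at 0.0691 in Wistar and 0.0599 in SHR. Its log2 ratio of -0.21 equals the median of all genes to 2 decimals, and it became 0.0063 when that median was set to 0. The PDE3 share of the summed level was 16.5% in Wistar and 23.9% in SHR.

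The PDE4 genes encode cAMP-specific enzymes, the targets of rolipram. The Pde4b mean was 0.343 per 10000 for Wistar against 0.194 for SHR, a 1.77-fold lower level and the third of the 10 in both strains. Pde4d had 0.0861 in Wistar and 0.0333 in SHR, with a log2 ratio of -1.37. Pde4d is under the minimum, and its SHR mean was 85.2 times the smallest level above 0 in that library. Pde4b therefore exceeded Pde4d in both libraries, and both PDE4 genes among the 10 were lower in SHR.

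Pde10a encodes an enzyme of dual substrate best known from striatal neurons. It averaged 0.182 per 10000 across the Wistar neurons and 0.117 across the SHR neurons. The difference was 1.55-fold, just past the size of 1.5-fold, and Pde10a ranked 5 of the 10 in both strains. With the median of all genes set to 0 its log2 ratio was -0.42, short of that size.

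The PDE1 genes encode enzymes stimulated by calcium and calmodulin, and they had low levels, the lowest of the 10 in Wistar, while in SHR Pde1c stood above Pde4d. Pde1c went from a Wistar mean of 0.0334 per 10000 to an SHR mean of 0.0445, a log2 ratio of 0.41. Pde1b was at 0.00765 in Wistar and 0.000550 in SHR, which is 1.41 times the smallest level above 0 in the SHR library. Pde1a was listed at 0.000203 in Wistar, 1.45 times the smallest level of that library, and at 0 in SHR. No fold is given for Pde1a or Pde1b, whose SHR values rest at the bottom of the scale. The Wistar level of Pde1b was 54.7 times the smallest of that library. The summed PDE1 level, most of it Pde1c, was 0.0413 in Wistar and 0.0451 in SHR.

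**Figure D2:**
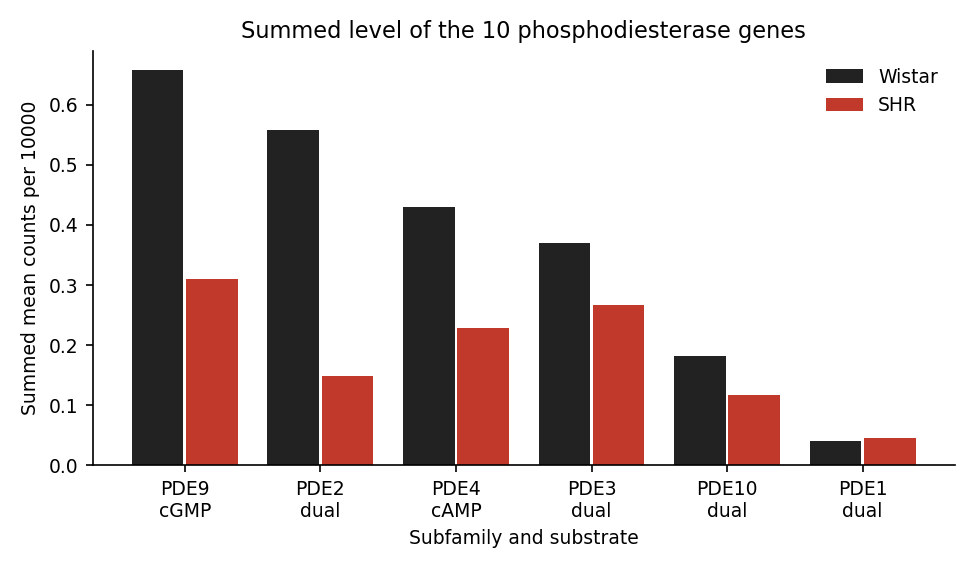
Summed mean counts per 10000 of the 10 genes by subfamily, with the substrate under each name, in Wistar (black) and SHR (red). Each bar is 1 library without an error. PDE9 is the tallest in both strains, PDE2 goes from 0.558 to 0.149, and PDE1 is near the axis in both.

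Grouped by substrate, the summed levels differed between the strains to a like degree, though the single genes did not. In the dual group Pde2a was 73.2% lower in SHR, while Pde1c, which is under the minimum, was 33.3% higher. The single cGMP-specific gene was 2.12-fold lower in SHR, the 2 cAMP-specific genes together 1.89-fold lower and the 7 genes of dual substrate together 1.99-fold lower. The dual group held 51.4% of the summed level in Wistar and 51.8% in SHR. Within that group the order of PDE2 and PDE3 differed between the strains. Pde2a exceeded the sum of Pde3a and Pde3b in Wistar, at 0.558 against 0.369 per 10000, and was under it in SHR, at 0.149 against 0.267.

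The other genes of the family were looked up as well. Of the 21 catalytic phosphodiesterase genes, 18 were above 0 in Wistar, and the 10 genes together with Pde7a carried most of the family's summed level, 2.73 per 10000 in Wistar and 1.41 in SHR. Pde7a, encoding a cAMP-specific enzyme insensitive to rolipram, was the third catalytic gene in Wistar at 0.359, and was 0.165 in SHR, a log2 ratio of -1.12. Pde8a, also specific for cAMP, was at 0.0861 in Wistar and 0.0922 in SHR, and Pde11a at 0.0235 and 0.0281. Pde5a, encoding the target of sildenafil, was near the bottom of the scale at 0.00143 and 0.00253. Of the PDE6 genes of photoreceptors, Pde6b and Pde6c were listed at 0 in both libraries. Pde4c has 2 lines, of which one is at 0 in both libraries and the other, which is not in the family sum, at 0 in Wistar and 0.0138 in SHR. Pde6d, whose product is a chaperone of prenylated proteins and not an enzyme, went the other way, from 0.637 in Wistar to 1.03 in SHR, which is 1.62-fold higher.

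**Figure D3:**
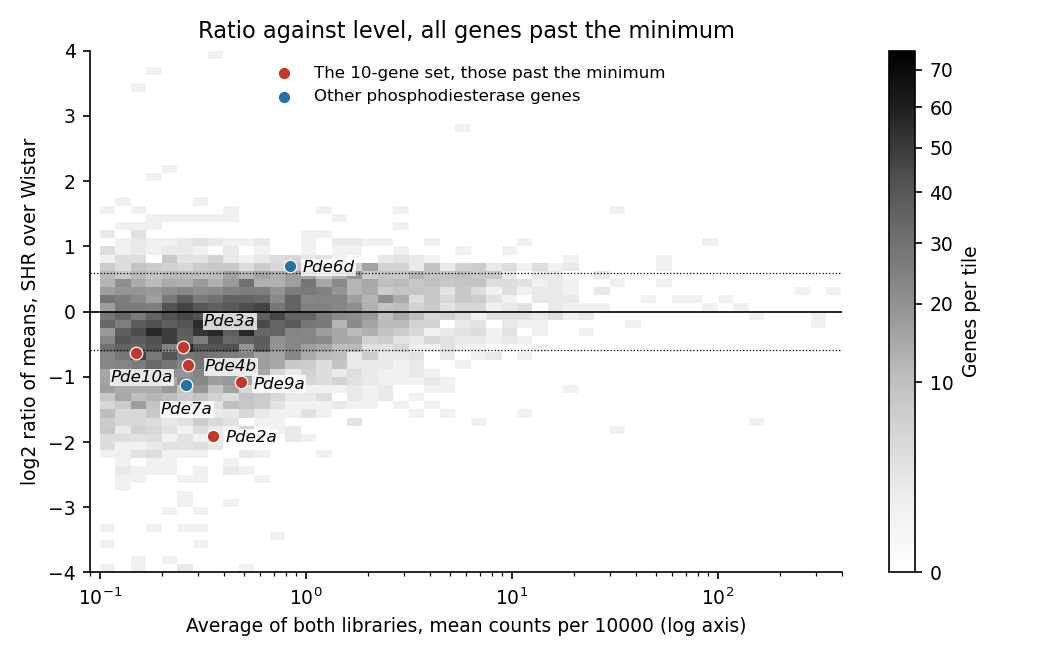
Log2 ratio of the means, SHR over Wistar, against the average level (log axis) for all 7621 genes past the minimum, as grey tiles shaded by the number of genes, with ratios beyond 4 in either direction drawn at the edge. Dotted lines mark 1.5-fold. The 5 phosphodiesterase genes of the set (red) lie below 0, Pde2a lowest at -1.90, with Pde7a (blue) at -1.12 and Pde6d (blue) above at 0.70.

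Several properties of the libraries moved together with these differences. The share of genes with a lower SHR mean was greater among long genes, and the 5 phosphodiesterase genes past the minimum are long. When all genes above the minimum were ordered and divided into 10 equal groups by span in the RefSeq annotation of the GRCr8 assembly, 8.37% of the shortest group were lower by at least 1.5-fold and 47.0% of the longest. Pde3a, Pde4b and Pde10a fall in the longest group, and Pde2a and Pde9a in the next, where the share was 40.9%. Among genes of its own span group, 1.51% had a ratio as low as that of Pde2a, 13.2% as low as that of Pde9a and 30.5% as low as that of Pde4b. For Pde10a and Pde3a the shares were 43.5% and 51.1%, so these last sit in the middle of genes of their length. The part of gene length in the differences was not tested.

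**Figure D4:**
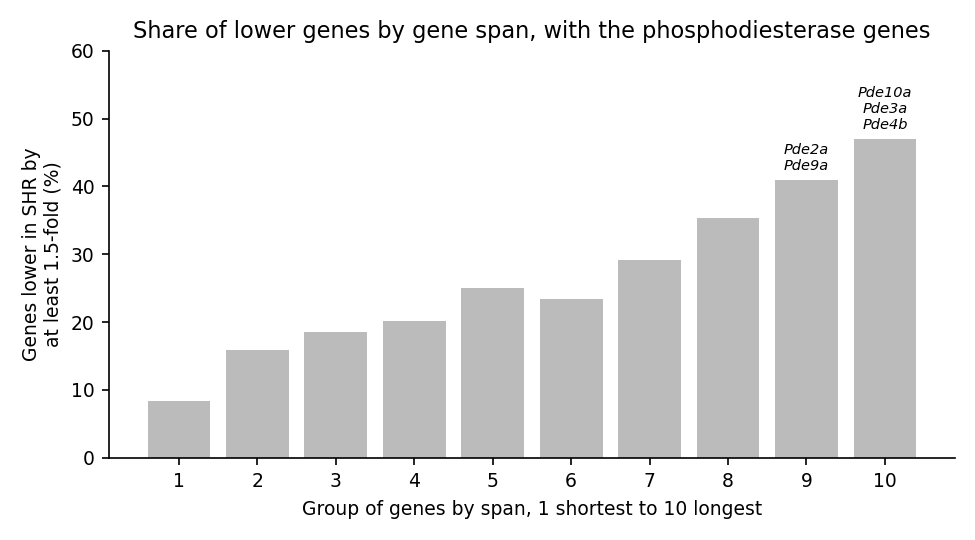
Percent of genes lower in SHR by at least 1.5-fold in 10 equal groups of genes ordered by span, from the shortest (1) to the longest (10), with the phosphodiesterase genes past the minimum written over their group. The share goes from 8.37% to 47.0%, and the 5 genes are in groups 9 and 10.

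Transcripts of other cells of the ganglion also differed between the clusters. All 7 markers looked up for satellite glia and Schwann cells were above 0, and their summed level was 8.80 per 10000 in Wistar and 3.24 in SHR, with Apoe at 6.24 and 2.23. The summed level of 6 fibroblast markers was 1.84 in Wistar and 0.353 in SHR, and that of 7 immune markers 0.414 and 0.0912, with Cd3e at 0 in both. The markers of endothelial cells, smooth muscle and erythrocytes that are listed summed to at most 0.120 per 10000 in either library, with Alas2 at 0 in both and Rgs5 at 0 in SHR. The part of such transcripts in the phosphodiesterase values was not tested. The 11 sympathetic neuron markers were all past the minimum, with summed levels of 147.1 and 160.7. Of the 11, 7 were lower in SHR, 3 of them by at least 1.5-fold. Over all genes past the minimum the shares were 65.6% and 26.5%. The median log2 ratio of the 11 was -0.06, beside -0.21 over all genes past the minimum. Prph, encoding the intermediate filament peripherin, was the most abundant, at 58.0 and 67.6. Slc6a2, the noradrenaline transporter gene, was at 15.9 and 15.2. The 3 lower by 1.5-fold were Cacna1b (2.67 and 1.28), Dbh (10.2 and 6.36) and Maoa (1.78 and 1.11), and Hand2, a transcription factor gene, had the highest ratio (0.250 and 0.452). The smallest level above 0 was 0.00014 in Wistar and 0.000391 in SHR, 2.80 times as high, which leaves less resolution for low genes in SHR. Fewer neurons with a transcript and fewer transcripts per neuron cannot be told apart in these means.

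The transcript levels of genes that make, bind or respond to cyclic nucleotides are given beside those of the phosphodiesterases. Of 10 adenylyl cyclase genes, 3 passed the minimum and all 3 were lower in SHR, 2 of them by at least 1.5-fold. For these and the following lists the shares over all genes are 65.6% lower by any amount and 26.5% lower by 1.5-fold, and lists of so few genes are given as values only. Adcy2 was the most abundant, with 0.712 per 10000 for Wistar against 0.465 for SHR, while Adcy6 had the lowest ratio of these, at -0.68 on the log2 scale, and Adcy3 the highest, at -0.26. Of 10 guanylyl cyclase genes, 3 passed and 2 were lower by 1.5-fold. Gucy1b1, a subunit of the cyclase that nitric oxide activates, was at 1.59 and 1.29, and Npr2, the receptor of C-type natriuretic peptide, at 0.529 and 0.289. In both libraries Gucy1b1 was more abundant than any of the 10 phosphodiesterase genes.

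Downstream, of 8 genes of protein kinase A subunits and inhibitors past the minimum, 4 were lower and 4 higher, with a median log2 ratio of 0.065. The regulatory subunit gene Prkar1a had 1.48 per 10000 against 1.26, Wistar first, and Pkib, an inhibitor of the kinase, at 0.0966 and 0.192. Pkia, a second inhibitor, had the lowest ratio, at 0.286 and 0.175. Among the other effectors all 3 genes past the minimum were lower by 1.5-fold. Prkg2, encoding a cGMP-dependent kinase, had 1.02 in Wistar and 0.176 in SHR, a 5.81-fold lower level and a wider gap than that of any of the 5 phosphodiesterase genes. Hcn3 and Hcn4, encoding channels of the pacemaker family, were at 0.558 and 0.243 in Wistar and 0.339 and 0.142 in SHR. Prkg1 is not analysed here.

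Of 11 anchoring proteins and phosphodiesterase partners past the minimum, 7 were lower, 5 of them by 1.5-fold, and 4 higher, beside 65.6% of all genes lower by any amount. Pde4dip, which encodes myomegalin, a PDE4D-interacting protein, had the lowest ratio, with 0.489 in Wistar and 0.222 in SHR. Akap12, the most abundant anchor gene on average, was at 4.48 and 3.42, Akap11 at 4.62 and 2.75, and Ndel1 had the highest ratio, at 0.916 and 1.28.

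**Figure D5:**
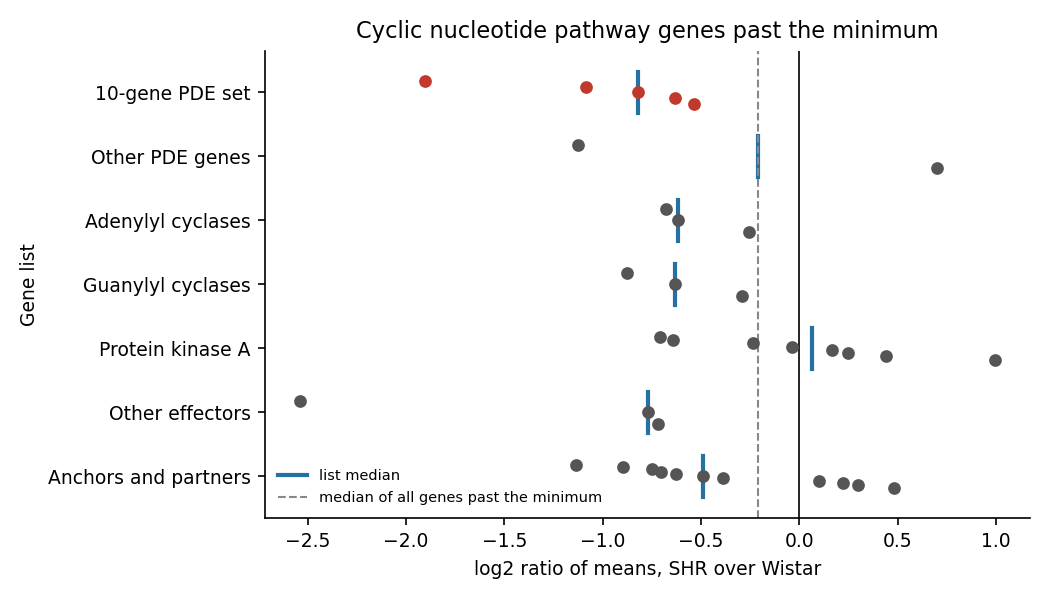
Log2 ratio of the means, SHR over Wistar, of the genes past the minimum in each list (points, 1 per gene), with the list median (blue bar), and the median of all genes past the minimum (dashed line, -0.21). The 5 phosphodiesterase genes of the set (red) have a median of -0.82 and the protein kinase A genes 0.065. The lowest point is Prkg2 at -2.54.

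Promoter sequence was read for the genes past the minimum whose ratios were the lowest and the highest, Pde2a and Pde3a, to set their start regions side by side. RefSeq windows on GRCr8, from 250 bases before a start to 50 after, were matched for 7 of the 10 genes in 14 windows. No entry was found for Pde1b, Pde3b and Pde9a. Printed are the 100 bases just before the start, 5′ to 3′ on the gene's strand, with each GC box (GGGCGG or its reverse complement CCGCCC, overlapping matches included) in capitals.
Pde2a, first start, chr1:165235523-165235622, plus strand: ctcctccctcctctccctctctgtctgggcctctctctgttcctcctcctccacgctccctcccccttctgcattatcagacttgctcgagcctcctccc
Pde2a, second start, chr1:165265909-165266008, plus strand: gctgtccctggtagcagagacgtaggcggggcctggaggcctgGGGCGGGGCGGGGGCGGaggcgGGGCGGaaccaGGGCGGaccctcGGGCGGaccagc
Pde3a, chr4:175904176-175904275, plus strand: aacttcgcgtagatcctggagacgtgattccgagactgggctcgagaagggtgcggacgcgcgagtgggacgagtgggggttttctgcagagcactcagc

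The second start of Pde2a holds 6 GC boxes in these 100 bases, and the other sequences shown hold none. A GC box is present in 21.6% of all 33469 such stretches, and of the 14 stretches of the phosphodiesterase genes it is in 1. Over the full 300 bases the numbers were 8 of 14 windows, from 5 of the 7 genes, and 33.1% of all windows. Windows of the same gene are not independent, and Pde4d alone has 5 of the 14. The cAMP response element TGACGTCA, read on both strands, is in none of the 14 windows and in 1.83% of all windows. These matches describe letters only. The counts come from the 3′ ends of transcripts and do not tell which start was used.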

How the data were processed

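Dissociated stellate ganglia were sequenced with the 10x Genomics 3′ chemistry. The submitters' processing notes name Cell Ranger 3.0.2, Seurat 3, DESeq2 and the build Rnor_6.0. Filters on cells, treatment of doublets and the number of neurons are not given in the sources used here, and barcodes shared by the libraries cannot be counted in means. To make the deposited values, counts of each cell were scaled to 10000 and averaged over the sympathetic neurons the authors selected, and 1 was added before taking the natural log. Converted back, they sum to 10000 in each library. The authors' table of their own comparison, with p-values, fold changes and shares of cells, was not used.

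Exactly repeated names (4 lines, every line of such a name) were left out, which leaves 25395 genes. In the deposited values 25 names had been turned into dates. Ratios of the back-converted means, without a pseudocount, were computed with Python 3.11.15, NumPy 2.4.6 and pandas 2.3.3, and the code was tested on simulated data. The minimum is an average of 0.1 per 10000 over both libraries. With 1 library per strain no test was run, and the depth per neuron is unknown. The genes and lists were chosen with earlier results of these data known. The genes named are the 10, the family, and in each list those of highest average level and of lowest and highest ratio. Other genes, such as Th, Slc6a2, Dbh, Maoa, Apoe, Akap11 and Hcn4, were named as markers or after their values were seen, and the promoter motifs were chosen after the values were seen. Spans were matched for 7289 of the 7621 genes past the minimum (95.6%) and used as ranks. A planned comparison of protein sequences was not made, and some genes of the planned lists are not reported here. The alternatives tried were pseudocounts, minimums, another size, scalings and centring.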

Additional observations from a re-analysis of the deposited data

How the results depend on the processing

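With 1 library per strain no replicate could be left out. No paired analysis was possible because there are no replicate libraries to pair. The median log2 ratio of the 5 genes, -0.82, became -0.59 with a pseudocount of 0.1 and -0.17 with 1, which shrink the ratios of low genes by construction. It became -0.61 with the median of all genes set to 0, -0.78 both without mitochondrial and ribosomal protein genes and without the 50 most abundant genes in the total, and the mean in place of the median was -0.996. The count of 4 genes lower by 1.5-fold became 0 with a pseudocount of 1 (1.26% of all genes) and 2 at a size of 2-fold (11.3% of all genes). With the centring 3 of the 5 were lower by 1.5-fold, beside 17.3% of all genes, and 3810 of the 7621 genes were lower by any amount. Leaving mitochondrial and ribosomal protein genes out gave summed levels of 2.77 in Wistar and 1.42 in SHR, and leaving out the 50 most abundant genes gave 3.19 and 1.64, since the smaller total raises every level. The log2 ratio of Pde3b changed sign under the centring, to 0.0063. The other 8 genes with a ratio kept their direction under the pseudocounts, scalings and centring. A minimum of 1 per 10000 left none of the genes. Depth per neuron is unknown, so counting error cannot be stated, least of all for Pde1a and Pde1b.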

Other observations

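Some genes unrelated in name had nearly the same pair of levels as the most abundant phosphodiesterase genes. Likeness was the sum over both libraries of the absolute differences in log2 level, which rests on 2 values per gene. Nearest to Pde9a was Mark4, a microtubule affinity kinase gene, with 0.657 per 10000 in Wistar and 0.300 in SHR, and then Prpf38b. Nearest to Pde2a was Flna, which encodes the actin crosslinker filamin A, with 0.554 and 0.147, and then Nbeal2. Nearest to Pde4b was Ppp4r1, a phosphatase subunit gene, with 0.341 and 0.196, and then Nfyb.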
